A study of Mus musculus with 30 samples.

Results

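The translation initiation and elongation factors of the mouse were followed through development of the embryonic ovary. The members were all genes whose only gene symbol in the platform annotation began with Eif or Eef and a digit, with every probe set of each, leaving out Eif2s3y. This gave 58 genes among 15964 named genes of the arrays, with 125 probe sets (65 for array A, 35 for array B and 25 for array C). Another 7 probe sets that carried a factor among several symbols were left out. Testing required a signal of 50 or more on 2 or more of the type's 10 arrays, which 92 of the 125 probe sets and 52 of the 58 genes did. None of the 92 reached that signal at 1 age only. Ovaries of mixed C57BL/6 and 129 mice were pooled at 5 ages in days post coitum (dpc), namely 11.5, 12.5, 14.5, 16.5 and 18.5 dpc. Each age had RNA samples numbered 1 and 2, and each number had an Affymetrix array of types A, B and C. The labels name no treatment and no altered gene. At the youngest ages the gonads were sexed by PCR for Sry, the male-determining gene. Whether samples 1 and 2 of an age were separate pools is not stated in the labels. The p-values therefore reflect only the spread of these samples, and that spread may be technical.

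Initiation factors bring the initiator tRNA, the small ribosomal subunit and the capped mRNA together, scan to the start codon and release when the large subunit joins. Elongation factors then deliver aminoacyl-tRNA to the ribosome and move the ribosome along the message. Oocytes are known for storing messages and translating them later, in part through control of the cap-binding step.

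Signals are the authors' linear, scaled intensities, and a change is a difference of log2(signal + 16) between ages, given with the standard error of the model. That scale understates the change of probe sets with low signals. Folds are taken on the same scale, as ratios of signal + 16, and not from the signals alone. Each probe set binds its target differently, so a signal is compared only with the same probe set at other ages. A gene with several tested probe sets is described by its main probe set, the tested one with the highest mean log2 signal. The share of probe sets with a signal of 50 or more ran from 48.8% to 54.2% for array A, 60.5% to 63.0% for array B and 51.4% to 55.7% for array C. The lowest was 11.5 dpc replicate 1 on array A. Across tested probe sets, the samples of each age correlated with Pearson's r of 0.950 to 0.974 for array A, 0.877 to 0.920 for array B and 0.856 to 0.896 for array C.

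The makeup of the organ and the RNA moved with age as well. The summed signal of 10 germ cell markers was 4596 and 4558 at 18.5 dpc, against 966.5 and 894 at 11.5 dpc, and 7 of the 10 were called higher and 1, Pou5f1, lower. Nobox, 1 of the 7, reached the signal needed for testing only at 18.5 dpc. The sum of 6 proliferation markers was 2988 and 2809 at 18.5 dpc, against 5497 and 4472 at 11.5 dpc, with 4 called lower and none higher. The sum of 7 markers of supporting cells was 10847 and 11792 at 18.5 dpc, against 9686 and 10826 at 11.5 dpc. Of the 7, 5 were called higher. Amhr2, which was not called, made up most of that sum, with 7928 and 8638 at 18.5 dpc, against 8052 and 8679 at 11.5 dpc. Each sum is weighted toward its brightest probe sets. Foxl2, which defines the supporting cells of the ovary, had 667 and 793 at 18.5 dpc, against 94.5 and 89.5 at 11.5 dpc. The 3 tested testis markers (Dhh, Hsd3b1 and Sox9) summed to 1093 and 1063 at 18.5 dpc, against 1175 and 1464 at 11.5 dpc, and Hsd3b1 was called higher, with 87.9 and 81.1 at 18.5 dpc, against 35.8 and 35.7 at 11.5 dpc. The sum of 4 endothelial markers was 232.5 and 223 at 18.5 dpc, against 438 and 513 at 11.5 dpc, with 2 called lower. The sum of 6 stroma markers was 3573 and 3761 at 18.5 dpc, against 2086 and 2722 at 11.5 dpc, with 3 called higher and 1 lower. All 6 tested erythroid markers were called, 3 higher (Alas2, Hba-a1 and Hbb-b2) and 3 lower (Hba-x, Hbb-bh1 and Hbb-y). Their sum was 23980 and 24591 at 18.5 dpc, against 17719.5 and 16012 at 11.5 dpc. The ratio of 3 prime to 5 prime Gapdh control signal, averaged over the array types, was 1.08 and 1.05 at 18.5 dpc, against 0.845 and 0.829 at 11.5 dpc. The part of each in the results below was not tested. In such bulk RNA, fewer cells of a type and less RNA per cell cannot be told apart.

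Over the whole course most translation factors did not pass the test, and of those that did more were lower than higher at 18.5 dpc. The excess of lower calls disappeared if either 11.5 dpc replicate 1 or 18.5 dpc replicate 2 was dropped. Eif1b, a close relative of the start codon factor eIF1, was higher at 18.5 dpc. Eif1a and Eif1ax, which encode the scanning factor eIF1A, were lower by some of their probe sets, as were the eIF3 core subunits Eif3a and Eif3c and the cap-binding inhibitor Eif4ebp1. Among the 92 tested probe sets, 4 (4.35%) were called higher at 18.5 than at 11.5 dpc and 11 (12.0%) lower, at an adjusted p under 0.05 in limma. Of all 24825 tested probe sets, 7.59% were called higher and 6.87% lower. The split was 5 higher and 5 lower without 11.5 dpc replicate 1, 1 higher and 4 lower without 18.5 dpc replicate 1, and 2 higher and 1 lower without 18.5 dpc replicate 2. Dropping any of the samples not named here kept more lower than higher calls. With all samples, the lower calls came from 9 genes and the higher calls from 4, with Eif2d in both groups. The median change was -0.05 over the 92 probe sets and -0.14 over the 52 main probe sets, against 0.02 over all tested probe sets.

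The F test over the 5 ages called 16 of the 92 probe sets (17.4%), of 14 genes, against 14.4% of all tested probe sets. The share of called factors was thus near that of the arrays as a whole in this fit. Both counts leaned on the 18.5 dpc samples. Without 18.5 dpc replicate 1 the comparison of 18.5 with 11.5 dpc called 5 probe sets, against 6.19% of all tested, and without 18.5 dpc replicate 2 it called 3, against 6.92% of all. With all samples 14.5% of all were called. The F test called 6 (7.44% of all) and 5 (8% of all) in those fits and 8 without 12.5 dpc replicate 1 (9.63% of all). Leaving out 16.5 dpc replicate 1 or 2 left 10 or 9 calls, against 11.3% and 10.4% of all. Without the intensity trend the F test called 5 of the 92, against 9.66% of all. The calls thus became fewer over the arrays as a whole in these fits and not among the factors alone. Whether the factors lost a larger share of their calls was not tested. Of the 15 calls at 18.5 against 11.5 dpc, 2 were kept in each of the 10 fits that left out 1 sample. These were Eif1b and the array C probe set of Eif1ax. The other 13 were each lost without at least 1 of the 18.5 dpc samples. With quantile normalization between arrays the split was 6 higher and 10 lower.

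**Figure D1:**
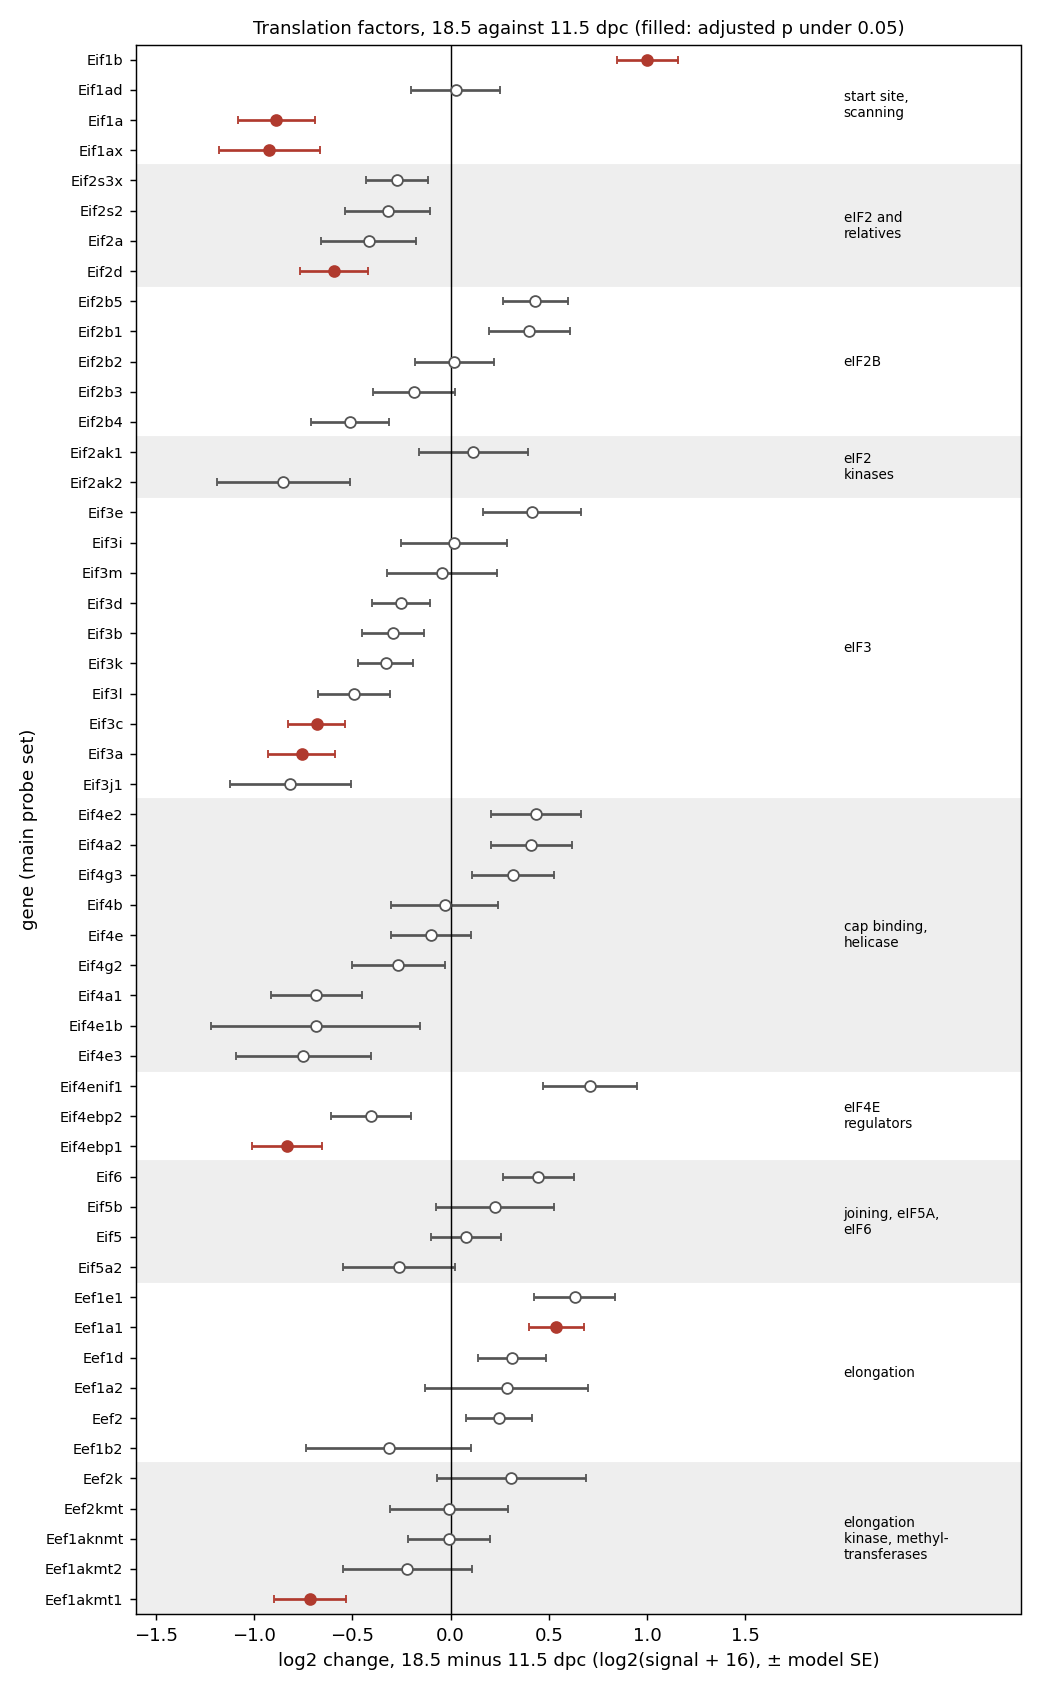
Change of each tested gene (main probe set) between 18.5 and 11.5 dpc on the log2(signal + 16) scale, grouped by role, with bars of 1 model standard error and filled points for an adjusted p under 0.05. Eif1b lies at 1.00 and Eif1ax at -0.92, Eef1a1 at 0.54 turns to -0.23 with quantile normalization, and no eIF2B subunit and no factor of subunit joining is filled.

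The factors of start site selection and scanning changed in both directions. Of 11 tested probe sets of 4 genes, 1 was called higher at 18.5 than at 11.5 dpc, 4 were called lower and 6 were not called. Of the 4 lower calls, 2 were of Eif1ax. For this count and those of the other role groups below, the shares over all tested probe sets were 7.59% higher and 6.87% lower. Whether any group differed from these shares was not tested. Eif1b had signals of 383 and 402 at 11.5 dpc, 479 and 447 at 12.5 dpc, 394 and 509 at 14.5 dpc, 598 and 603 at 16.5 dpc, then 767 and 838 at 18.5 dpc. Its samples of 16.5 and 18.5 dpc lay above every sample of the 3 younger ages. The signal was 2.00-fold higher at 18.5 than at 11.5 dpc, a log2 change of 1.00 ± 0.16 (SE; adjusted p = 0.00136).

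Eif1a lies on an autosome and Eif1ax on the X chromosome, and their products are forms of eIF1A, which opens the small subunit for scanning. The main probe set of Eif1a had signals of 415 and 272 at 11.5 dpc, 250.4 and 266 at 12.5 dpc, 238 and 211 at 14.5 dpc, 163 and 178 at 16.5 dpc, then 189 and 161 at 18.5 dpc. Both samples of 18.5 dpc lay below both of 11.5 dpc, where replicate 1 stood well above replicate 2. The log2 change was -0.89 ± 0.20 (SE; adjusted p = 0.0101), and the gene lost its call without 18.5 dpc replicate 2 (adjusted p = 0.0911) and without 11.5 dpc replicate 1 (adjusted p = 0.061). The other Eif1a probe set, also on array A, changed by -0.56 ± 0.19 without a call (adjusted p = 0.0665), and was called lower with median centring (adjusted p = 0.047) and with adjustment within each array type (adjusted p = 0.0441).

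Eif1ax had 6 tested probe sets, and they did not behave alike. The main one, on array B, had signals of 4475 and 2820.0 at 11.5 dpc, 2073 and 3012 at 12.5 dpc, 3708 and 3660.5 at 14.5 dpc, 1941 and 1674 at 16.5 dpc, then 1832 and 1900.2 at 18.5 dpc. Its level at 14.5 dpc was nearly that of 11.5 dpc, and the samples of 16.5 and 18.5 dpc lay below all others. The log2 change was -0.92 ± 0.26 (SE; adjusted p = 0.0288). It lost its call without 11.5 dpc replicate 1 (adjusted p = 0.16), without 18.5 dpc replicate 1 (adjusted p = 0.157) and without 18.5 dpc replicate 2 (adjusted p = 0.128), and also with quantile normalization (adjusted p = 0.16) and with no filter (adjusted p = 0.0704).

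The array C probe set of Eif1ax had signals of 1186 and 946 at 11.5 dpc, 769 and 915 at 12.5 dpc, 845 and 1002 at 14.5 dpc, 545 and 473 at 16.5 dpc, then 460.3 and 504 at 18.5 dpc. The order of the ages was much the same as on array B, with 16.5 and 18.5 dpc apart from the 3 younger ages. The log2 change was -1.11 ± 0.21 (SE; adjusted p = 0.00459), a 2.16-fold lower signal at 18.5 dpc. The remaining 4 probe sets of Eif1ax, all with a plain _at suffix, changed by -0.53 to 0.12 and none was called. Both called probe sets carry the suffix f, which in Affymetrix naming marks probes that may match a family of related sequences. Whether Eif1a adds to their signal was not tested.

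Eif1ad encodes a protein with an eIF1A-like domain. It has 2 tested probe sets on array B, of which the one that is not its main probe set had signals of 262 and 209.7 at 11.5 dpc, 241 and 211 at 12.5 dpc, 352 and 344 at 14.5 dpc, 214 and 208 at 16.5 dpc, then 128 and 154 at 18.5 dpc. The level was highest at 14.5 dpc and lowest at 18.5 dpc. The log2 change between 18.5 and 11.5 dpc was -0.68 ± 0.20 (SE; adjusted p = 0.0417), and the probe set lost its call in 9 of the 10 fits that left out 1 sample, with the highest adjusted p, 0.238, without 18.5 dpc replicate 1. The call was also lost with the replicate number as a block (adjusted p = 0.0551), while the F test gave an adjusted p of 0.0146. The main probe set of Eif1ad changed by 0.03 ± 0.23 and was not called.

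**Figure D2:**
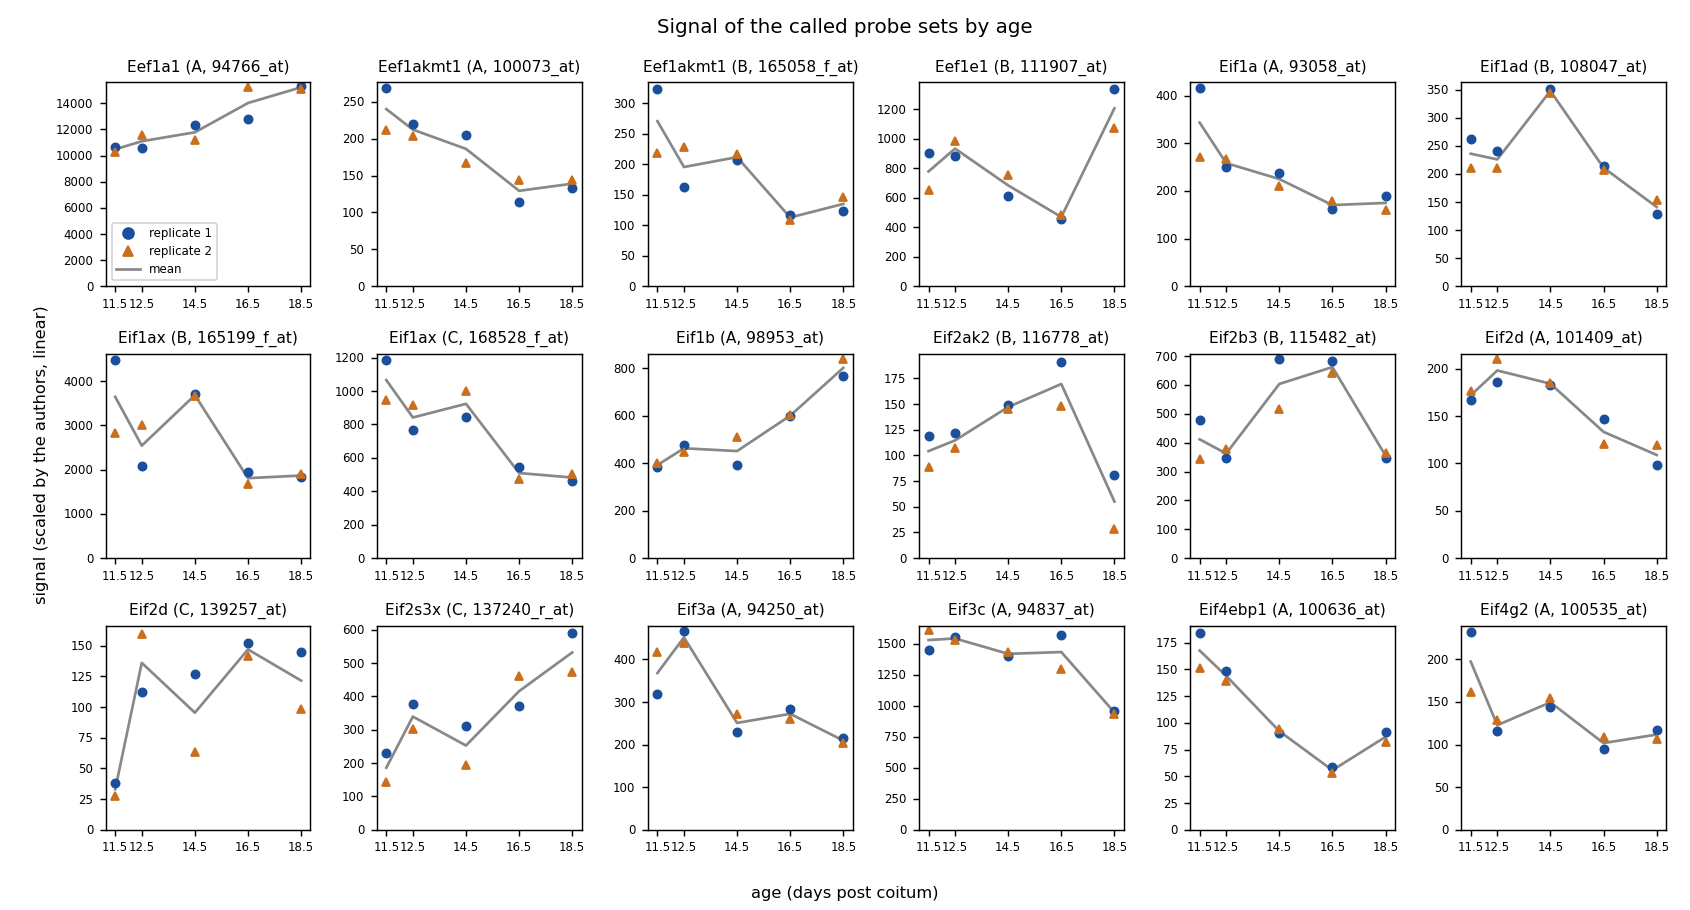
Signal (linear, as scaled by the authors) by age in days post coitum for the 18 called probe sets, titled by gene, array type and probe set, with circles for replicate 1, triangles for replicate 2 and a line through the means. Eif1b ends at 767 and 838, Eif4ebp1 is lowest at 16.5 dpc with 58.6 and 52.8, Eef1e1 is lowest at 16.5 dpc and highest at 18.5 dpc, and the rise of Eef1a1 is lost with quantile normalization.

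eIF2 carries the initiator tRNA to the small subunit, and Eif2a and Eif2d encode separate proteins that can deliver it without eIF2. Of 7 tested probe sets of 4 genes, 2 were called higher, 1 lower and 4 were not called. Eif2s3x encodes the gamma subunit of eIF2, which binds GTP. Its main probe set, on array A, had signals of 914 and 1226 at 11.5 dpc, 1131 and 1218 at 12.5 dpc, 851 and 813 at 14.5 dpc, 831 and 828 at 16.5 dpc, then 905 and 842 at 18.5 dpc. Its change of -0.27 ± 0.16 was not called (adjusted p = 0.281). The array C probe set of Eif2s3x had signals of 231 and 142 at 11.5 dpc, 378 and 301 at 12.5 dpc, 310.5 and 195 at 14.5 dpc, 371 and 460.0 at 16.5 dpc, then 589.5 and 474 at 18.5 dpc. Here both samples of 18.5 dpc lay above all samples of other ages, with a log2 change of 1.47 ± 0.31 (SE; adjusted p = 0.00712). It lost its call without 18.5 dpc replicate 1 (adjusted p = 0.0737). It carries the suffix r, which marks relaxed design rules. The probe sets of Eif2s3x thus had opposite signs.

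Eif2d showed calls in both directions. On array A it had signals of 167 and 176 at 11.5 dpc, 186 and 209.9 at 12.5 dpc, 183 and 185 at 14.5 dpc, 146 and 120.2 at 16.5 dpc, then 98.1 and 119.7 at 18.5 dpc. This probe set was lower at 18.5 dpc, with a log2 change of -0.59 ± 0.17 (SE; adjusted p = 0.0373). On array C Eif2d had signals of 38.4 and 27.6 at 11.5 dpc, 112 and 159.6 at 12.5 dpc, 127 and 63.5 at 14.5 dpc, 152 and 142 at 16.5 dpc, then 144 and 98.5 at 18.5 dpc. It was higher at 18.5 dpc, with a log2 change of 1.48 ± 0.42 (SE; adjusted p = 0.034), and its 11.5 dpc signals lay under the floor of 50. The array A call was lost in 6 of the 10 fits that left out 1 sample and with no filter (adjusted p = 0.0521), and the array C probe set lost its call without 18.5 dpc replicate 1 (adjusted p = 0.197), without 11.5 dpc replicate 2 (adjusted p = 0.114), without 18.5 dpc replicate 2 (adjusted p = 0.0705) and without 11.5 dpc replicate 1 (adjusted p = 0.065). The array C call was lost as well with adjustment within each array type (adjusted p = 0.0584). No direction for the gene follows from these probes.

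Eif2s2, the beta subunit of eIF2, had signals of 117 and 82.6 at 11.5 dpc, 63.2 and 68.9 at 12.5 dpc, 62.3 and 83.4 at 14.5 dpc, 64.3 and 74.2 at 16.5 dpc, then 74.3 and 77.1 at 18.5 dpc by its main probe set. The change was -0.32 ± 0.22 and its other probe set changed by 0.05 ± 0.31. Eif2a had signals of 349.6 and 193 at 11.5 dpc, 248 and 238 at 12.5 dpc, 286 and 198 at 14.5 dpc, 176 and 188 at 16.5 dpc, then 192 and 190.3 at 18.5 dpc. Its 11.5 dpc replicate 1 stood above every other sample, and the change of -0.42 ± 0.24 was not called. It was called lower without 11.5 dpc replicate 2 (log2 change -0.82, adjusted p = 0.0239).

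**Figure D3:**
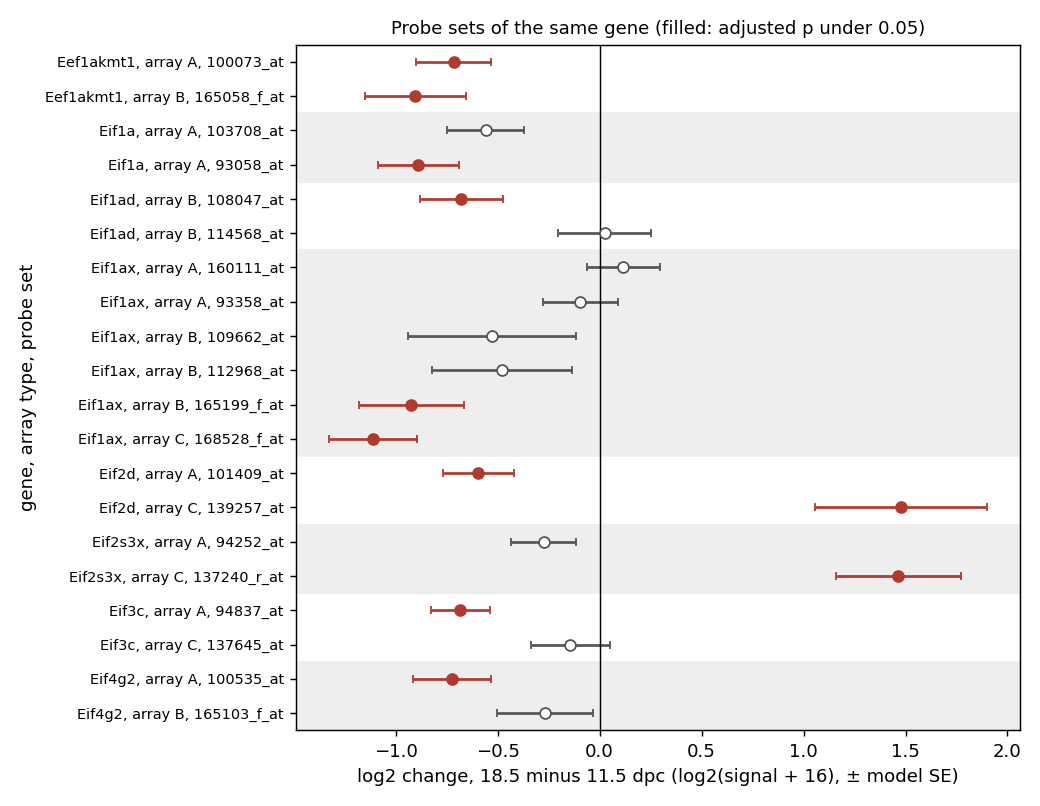
Change between 18.5 and 11.5 dpc (log2(signal + 16), bars of 1 model standard error) for every tested probe set of the 8 genes that had a call and over 1 tested probe set, with filled points for an adjusted p under 0.05. Eef1akmt1 is filled on arrays A and B on the same side, Eif2d lies at -0.59 on array A and 1.48 on array C, and Eif2s3x at -0.27 and 1.47.

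Probe sets of the same gene often differed. Of 27 genes with over 1 tested probe set, 16 had changes of both signs between 18.5 and 11.5 dpc. Of the 8 with a call, 1 was called by every probe set in the same direction (Eef1akmt1) and 1 was called in both directions (Eif2d). The array B probe set of Eef1akmt1 carries the suffix f. Among the 92 tested probe sets, 21 carry a lettered suffix. Of the 71 with a plain _at suffix, 11 were called when only such probe sets were fitted, 3 higher and 8 lower at 18.5 dpc.

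eIF2B reloads eIF2 with GTP and is the step that eIF2 phosphorylation blocks. None of its 9 tested probe sets, covering all 5 subunits, was called between 18.5 and 11.5 dpc. Eif2b3, the gamma subunit, passed the F test (adjusted p = 0.0215) through its array B probe set. That probe set had signals of 479 and 344 at 11.5 dpc, 348 and 377 at 12.5 dpc, 690.0 and 517 at 14.5 dpc, 682 and 642 at 16.5 dpc, then 346 and 364 at 18.5 dpc. The samples of 14.5 and 16.5 dpc lay above those of the other ages. It lost its call in 5 of the 10 fits that left out 1 sample, with the highest adjusted p, 0.0735, without 16.5 dpc replicate 1. The array C probe set of Eif2b3 gave a change of -0.81 ± 0.58 at 18.5 against 11.5 dpc and no call.

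The alpha subunit gene Eif2b1 had signals of 252 and 179 at 11.5 dpc, 204 and 184 at 12.5 dpc, 238 and 167 at 14.5 dpc, 304 and 257 at 16.5 dpc, then 278 and 295 at 18.5 dpc, a change of 0.40 ± 0.20 between 18.5 and 11.5 dpc. The beta subunit gene Eif2b2 had signals of 130.1 and 98.5 at 11.5 dpc, 134 and 132 at 12.5 dpc, 128 and 141 at 14.5 dpc, 145 and 118 at 16.5 dpc, then 134 and 98.2 at 18.5 dpc, a change of 0.02 ± 0.20. The 18.5 dpc samples of Eif2b2 overlapped those of 11.5 dpc. The delta subunit gene Eif2b4 had signals of 2005 and 1677 at 11.5 dpc, 1284 and 1312 at 12.5 dpc, 1187 and 1416 at 14.5 dpc, 1214 and 1333 at 16.5 dpc, then 1412 and 1163 at 18.5 dpc, a change of -0.51 ± 0.20 by an array C probe set with suffix f. The array A probe set of Eif2b4 changed by 0.05 ± 0.17. The catalytic epsilon subunit gene Eif2b5 had signals of 169 and 165 at 11.5 dpc, 242 and 193 at 12.5 dpc, 212 and 214 at 14.5 dpc, 173 and 198 at 16.5 dpc, then 225 and 237 at 18.5 dpc. Both probe sets of Eif2b5 lay higher at 18.5 than at 11.5 dpc in every sample, by 0.43 ± 0.16 and 0.51 ± 0.19, without a call (adjusted p = 0.103 and 0.0943).

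The eIF2 kinases phosphorylate eIF2 in response to stress. Eif2ak2 encodes PKR, the kinase activated by double-stranded RNA. Its array B probe set had signals of 119 and 89.0 at 11.5 dpc, 122 and 107 at 12.5 dpc, 149 and 146 at 14.5 dpc, 191 and 148 at 16.5 dpc, then 81.4 and 28.8 at 18.5 dpc. The signal was highest at 16.5 dpc and lowest at 18.5 dpc, where the samples differed widely. The F test called it (adjusted p = 0.0472), although the call was lost in 8 of the 10 fits that left out 1 sample, with an adjusted p of 0.211 without 18.5 dpc replicate 2. It was also lost with a pseudocount of 4 (adjusted p = 0.0546), with no filter (adjusted p = 0.0815) and with adjustment within each array type (adjusted p = 0.0503). At 18.5 against 11.5 dpc Eif2ak2 was called lower without 18.5 dpc replicate 1 and under no other setting tried (log2 change -1.41, adjusted p = 0.0261). Eif2ak1, the heme-regulated kinase, had signals of 252 and 291 at 11.5 dpc, 263 and 132 at 12.5 dpc, 224 and 258 at 14.5 dpc, 161 and 199.5 at 16.5 dpc, then 257 and 337 at 18.5 dpc, and its change of 0.12 ± 0.28 at 18.5 against 11.5 dpc was not called. Eif2ak3 (PERK) stayed between 6.6 and 47.6 and Eif2ak4 (GCN2) between 28.9 and 46.8 on all arrays, so neither was tested.

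eIF3 is the large scaffold that binds the small subunit and recruits mRNA. Of 14 tested probe sets of 10 genes, 2 were called lower at 18.5 than at 11.5 dpc, none higher and 12 were not called. Eif3a, a core subunit, had signals of 318 and 418 at 11.5 dpc, 466 and 438 at 12.5 dpc, 230.1 and 272 at 14.5 dpc, 285 and 259.9 at 16.5 dpc, then 216 and 203 at 18.5 dpc. All samples from 14.5 dpc on lay below all those of 11.5 and 12.5 dpc. The log2 change at 18.5 against 11.5 dpc was -0.76 ± 0.17 (SE; adjusted p = 0.011). It lost its call without 18.5 dpc replicate 2 (adjusted p = 0.0891), without 18.5 dpc replicate 1 (adjusted p = 0.0636) and without 11.5 dpc replicate 2 (adjusted p = 0.052). Its F test (adjusted p = 0.00667) stayed called in all 10 fits that left out 1 sample.

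Eif3c, which forms the core of eIF3 with Eif3a, had signals of 1449.5 and 1613 at 11.5 dpc, 1555 and 1532 at 12.5 dpc, 1405 and 1434 at 14.5 dpc, 1575 and 1293 at 16.5 dpc, then 956 and 938 at 18.5 dpc on array A. The level was flat to 16.5 dpc and lower in both samples of 18.5 dpc. The log2 change was -0.68 ± 0.14 (SE; adjusted p = 0.00746), a 1.60-fold lower signal at 18.5 dpc. It lost its call without 18.5 dpc replicate 2 (adjusted p = 0.0732) and without 18.5 dpc replicate 1 (adjusted p = 0.0675). The array C probe set of Eif3c had signals of 811 and 741 at 11.5 dpc, 872 and 851 at 12.5 dpc, 872 and 931 at 14.5 dpc, 1099 and 912 at 16.5 dpc, then 699.7 and 701 at 18.5 dpc and changed by -0.14 ± 0.19 without a call.

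The other eIF3 subunits with a tested main probe set gave no call. Eif3b, another core subunit, had signals of 453 and 476 at 11.5 dpc, 555 and 455 at 12.5 dpc, 478 and 536 at 14.5 dpc, 324 and 389 at 16.5 dpc, then 373 and 379 at 18.5 dpc, a change of -0.29 ± 0.16 at 18.5 against 11.5 dpc. Eif3d, which can itself bind the cap in human cells, had signals of 624 and 656 at 11.5 dpc, 775 and 634 at 12.5 dpc, 569.8 and 546 at 14.5 dpc, 514 and 522 at 16.5 dpc, then 521 and 548 at 18.5 dpc, a change of -0.25 ± 0.15. Both lay lower in both samples of 18.5 dpc than in both of 11.5 dpc. Eif3e had signals of 1071 and 558 at 11.5 dpc, 556 and 792 at 12.5 dpc, 836 and 827 at 14.5 dpc, 684 and 737 at 16.5 dpc, then 1008 and 1064 at 18.5 dpc, a change of 0.41 ± 0.25, with 11.5 dpc replicate 1 near the 18.5 dpc level and replicate 2 far below. Without 11.5 dpc replicate 1, Eif3e was called higher at 18.5 dpc (log2 change 0.87, adjusted p = 0.0163). The other tested Eif3e probe set, also on array A, had signals of 9.40 and 28.6 at 11.5 dpc, 51.2 and 63.8 at 12.5 dpc, 41.0 and 36.9 at 14.5 dpc, 64.6 and 78.0 at 16.5 dpc, then 36.6 and 65.3 at 18.5 dpc, a change of 0.96 ± 0.31 (SE; adjusted p = 0.06). It was called higher with the replicate number as a block (adjusted p = 0.0426), with adjustment within each array type (adjusted p = 0.0398) and without 11.5 dpc replicate 2 (adjusted p = 0.0183).

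Eif3i had signals of 99.9 and 166 at 11.5 dpc, 188 and 156 at 12.5 dpc, 177 and 131 at 14.5 dpc, 127 and 152 at 16.5 dpc, then 124 and 138 at 18.5 dpc, a change of 0.02 ± 0.27. Eif3j1, the loosely attached subunit j, had signals of 462 and 257 at 11.5 dpc, 218 and 302 at 12.5 dpc, 175 and 343 at 14.5 dpc, 242 and 189 at 16.5 dpc, then 174 and 206 at 18.5 dpc, a change of -0.82 ± 0.31. The spread between samples was wide in both genes. Eif3k had signals of 1687 and 1483 at 11.5 dpc, 1420.0 and 1491 at 12.5 dpc, 1580.2 and 1715 at 14.5 dpc, 1279.5 and 1449 at 16.5 dpc, then 1228 and 1279.8 at 18.5 dpc, a change of -0.33 ± 0.14. Eif3l had signals of 1057 and 1658 at 11.5 dpc, 1399 and 1413 at 12.5 dpc, 1031 and 1126 at 14.5 dpc, 1136 and 1133 at 16.5 dpc, then 950.3 and 922 at 18.5 dpc, a change of -0.49 ± 0.18. Both Eif3k and Eif3l lay lower in each 18.5 dpc sample than in each 11.5 dpc sample, without a call. The share of all tested probe sets separated in this way is not given, here or for Eif3b, Eif3d and Eif2b5. Eif3l was called without 11.5 dpc replicate 1 (log2 change -0.81, adjusted p = 0.00481) and Eif3j1 without 11.5 dpc replicate 2 (log2 change -1.22, adjusted p = 0.0286). Eif3m had signals of 3167 and 1439 at 11.5 dpc, 1466 and 1636 at 12.5 dpc, 2302 and 2169 at 14.5 dpc, 1343 and 1873 at 16.5 dpc, then 2133 and 2016 at 18.5 dpc, a change of -0.04 ± 0.28. Its 11.5 dpc samples spanned more than those of any later age. Eif3f stayed between 1.5 and 69.5 and was not tested.

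The factors of cap binding and mRNA unwinding, which are the parts of eIF4F and their relatives, gave 1 call among 17 tested probe sets of 9 genes. Eif4g2, a relative of the eIF4G scaffold without the eIF4E-binding part, had signals of 232 and 162 at 11.5 dpc, 116 and 129 at 12.5 dpc, 144 and 155 at 14.5 dpc, 94.4 and 109 at 16.5 dpc, then 116 and 107 at 18.5 dpc on array A. The 11.5 dpc samples lay above all later ones. The log2 change was -0.72 ± 0.19 (SE; adjusted p = 0.0254). It lost its call without 11.5 dpc replicate 1 (adjusted p = 0.145), without 18.5 dpc replicate 2 (adjusted p = 0.138) and without 18.5 dpc replicate 1 (adjusted p = 0.0935). The main probe set of Eif4g2, on array B, had signals of 306 and 321 at 11.5 dpc, 292 and 230.3 at 12.5 dpc, 252 and 285 at 14.5 dpc, 168 and 280.3 at 16.5 dpc, then 271 and 246 at 18.5 dpc and changed by -0.27 ± 0.24 without a call.

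Eif4e, the cap-binding protein, had signals of 687 and 822 at 11.5 dpc, 849 and 808 at 12.5 dpc, 861 and 979.6 at 14.5 dpc, 722 and 728 at 16.5 dpc, then 777 and 632 at 18.5 dpc. Its change was -0.10 ± 0.20, and the 18.5 and 11.5 dpc samples overlapped. Eif4a1, a helicase of eIF4F, had signals of 717 and 427 at 11.5 dpc, 531 and 364 at 12.5 dpc, 406 and 366 at 14.5 dpc, 288 and 292 at 16.5 dpc, then 366 and 314 at 18.5 dpc, a change of -0.68 ± 0.23. Its paralog Eif4a2 had signals of 2063 and 1545 at 11.5 dpc, 1559 and 1995 at 12.5 dpc, 1045 and 1584 at 14.5 dpc, 1728 and 1685 at 16.5 dpc, then 2462 and 2298 at 18.5 dpc, a change of 0.41 ± 0.21. The helicases lay on opposite sides of 0 and neither was called (adjusted p = 0.0698 for Eif4a1 and 0.214 for Eif4a2). The difference between them was not tested, and the Eif4a1 probe set carries the suffix r. Eif4a1 was called lower with the replicate number as a block (adjusted p = 0.0366), with adjustment within each array type (adjusted p = 0.0466) and without 11.5 dpc replicate 2 (adjusted p = 0.00841). Eif4a2 was called higher with quantile normalization (adjusted p = 0.0445).

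Eif4b, which stimulates the helicase, had signals of 324 and 687 at 11.5 dpc, 692 and 514 at 12.5 dpc, 433 and 529 at 14.5 dpc, 465 and 446 at 16.5 dpc, then 481 and 446 at 18.5 dpc, a change of -0.03 ± 0.27. Eif4g3, an eIF4G scaffold, had signals of 118 and 156 at 11.5 dpc, 202 and 135 at 12.5 dpc, 110.2 and 129.8 at 14.5 dpc, 135 and 148 at 16.5 dpc, then 176 and 171 at 18.5 dpc, a change of 0.32 ± 0.21. Neither was called. Eif4e1b, a cap-binding paralog known from oocytes, had signals of 68.5 and 38.9 at 11.5 dpc, 18.1 and 14.0 at 12.5 dpc, 20.7 and 34.4 at 14.5 dpc, 17.9 and 59.0 at 16.5 dpc, then 25.8 and 26.8 at 18.5 dpc. Those signals exceeded 50 in 1 sample of 11.5 dpc and 1 of 16.5 dpc, and no rise toward birth was measured by this probe set. Eif4e3 had signals of 122 and 76.8 at 11.5 dpc, 53.0 and 74.2 at 12.5 dpc, 60.3 and 75.2 at 14.5 dpc, 35.1 and 50.4 at 16.5 dpc, then 47.8 and 55.2 at 18.5 dpc, a change of -0.75 ± 0.34. Eif4e2, a cap-binding repressor, had signals of 175 and 121 at 11.5 dpc, 174 and 164 at 12.5 dpc, 151 and 149 at 14.5 dpc, 195 and 199.6 at 16.5 dpc, then 222 and 185 at 18.5 dpc, a change of 0.44 ± 0.23, while its 6 tested probe sets ranged from -0.74 to 0.80. No probe set of Eif4e1b, Eif4e2 or Eif4e3 was called. Eif4h stayed between 4.1 and 16.3 and was not tested.

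The regulators of eIF4E gave the lowest F test p of all members. Eif4ebp1, which sequesters eIF4E when mTOR is inactive, had signals of 184 and 151 at 11.5 dpc, 149 and 139 at 12.5 dpc, 90.2 and 94.2 at 14.5 dpc, 58.6 and 52.8 at 16.5 dpc, then 91.4 and 82.3 at 18.5 dpc. Its level was lower at each age up to 16.5 dpc, and both 18.5 dpc samples lay above both of 16.5 dpc but below all of 11.5 and 12.5 dpc. The adjusted p was 0.00182 in the F test, which stayed called in all 10 fits that left out 1 sample. The log2 change at 18.5 against 11.5 dpc was -0.83 ± 0.18 (SE; adjusted p = 0.00838), and it lost its call without 18.5 dpc replicate 2 (adjusted p = 0.0723). Eif4ebp2, its relative, had signals of 290.5 and 418 at 11.5 dpc, 375 and 318 at 12.5 dpc, 259.8 and 359 at 14.5 dpc, 322 and 334 at 16.5 dpc, then 245 and 274 at 18.5 dpc, a change of -0.41 ± 0.20 without a call. Eif4enif1 (4E-T), which holds eIF4E in storage granules of oocytes, had signals of 482 and 838 at 11.5 dpc, 661 and 692 at 12.5 dpc, 684 and 869.6 at 14.5 dpc, 1086 and 912 at 16.5 dpc, then 1104 and 997 at 18.5 dpc. It changed by 0.71 ± 0.24 (adjusted p = 0.0651) and was called higher with quantile normalization (adjusted p = 0.0342) and without 11.5 dpc replicate 2 (adjusted p = 0.00693).

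None of the 8 tested probe sets for subunit joining, eIF5A and eIF6 was called in any comparison. Eif5, which triggers GTP hydrolysis on eIF2, had signals of 358 and 323 at 11.5 dpc, 299.5 and 233 at 12.5 dpc, 325 and 354 at 14.5 dpc, 254 and 329 at 16.5 dpc, then 372 and 347 at 18.5 dpc, a change of 0.08 ± 0.18. Eif5b, which joins the subunits, had signals of 176 and 271 at 11.5 dpc, 262 and 245 at 12.5 dpc, 292 and 246 at 14.5 dpc, 368 and 171 at 16.5 dpc, then 278 and 240.0 at 18.5 dpc, a change of 0.23 ± 0.30. Eif5a2 had signals of 461 and 426 at 11.5 dpc, 512 and 740.0 at 12.5 dpc, 480.1 and 593 at 14.5 dpc, 402 and 233 at 16.5 dpc, then 341 and 395 at 18.5 dpc, a change of -0.26 ± 0.29. None of these 3 genes was called. Eif6, which keeps the large subunit free until it is mature, had signals of 268 and 297 at 11.5 dpc, 261 and 226 at 12.5 dpc, 211 and 258 at 14.5 dpc, 231 and 318 at 16.5 dpc, then 398 and 384 at 18.5 dpc. Its array A probe set changed by 0.45 ± 0.18 (adjusted p = 0.126), the one on array B by 0.28 ± 0.52 and the one on array C by -0.41 ± 0.32. Eif5a stayed between 21.4 and 36.2 and was not tested.

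Among the elongation factors, 1 of 9 tested probe sets was called higher at 18.5 than at 11.5 dpc and none lower. Eef1a1 delivers aminoacyl-tRNA to the ribosome. It had signals of 10687 and 10260.2 at 11.5 dpc, 10615 and 11571 at 12.5 dpc, 12349 and 11204 at 14.5 dpc, 12768 and 15264 at 16.5 dpc, then 15343 and 15091 at 18.5 dpc. The log2 change at 18.5 against 11.5 dpc was 0.54 ± 0.14 (SE; adjusted p = 0.0239), but it was -0.23 (adjusted p = 0.12) with quantile normalization. The probe set ranked 5 and 6 of 12422 on array A in the 18.5 dpc samples, against 1 and 2 in the 11.5 dpc samples, so its place among the brightest probe sets moved down while its scaled signal was higher. It was not called with median centring (adjusted p = 0.09) or with no filter (adjusted p = 0.141), and it lost its call without 18.5 dpc replicate 1 (adjusted p = 0.139), without 18.5 dpc replicate 2 (adjusted p = 0.117) and without 11.5 dpc replicate 2 (adjusted p = 0.0505).

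Eef1e1 (AIMP3) belongs to the complex of aminoacyl-tRNA synthetases and carries the elongation factor name by its sequence. Its array B probe set had signals of 902 and 655 at 11.5 dpc, 881 and 985 at 12.5 dpc, 613 and 754 at 14.5 dpc, 457 and 482 at 16.5 dpc, then 1338 and 1074 at 18.5 dpc. The 16.5 dpc samples were the lowest and the 18.5 dpc samples the highest of all ages. The F test gave an adjusted p of 0.00657 and stayed called in all 10 fits that left out 1 sample. The change at 18.5 against 11.5 dpc, 0.63 ± 0.21 (SE; adjusted p = 0.057), was not called, but it was with quantile normalization (adjusted p = 0.014), with a filter at 100 (adjusted p = 0.0484) and without 11.5 dpc replicate 1 (adjusted p = 0.0284).

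Eef2, which moves the ribosome along, had signals of 1566 and 1834 at 11.5 dpc, 2342 and 1666 at 12.5 dpc, 1751 and 1929 at 14.5 dpc, 2062 and 2130.4 at 16.5 dpc, then 1995 and 2030.0 at 18.5 dpc, a change of 0.25 ± 0.17. Its array B probe set ranged from 1.6 to 6.2 while that on array A reached 2342, so a low signal of a probe set does not show that a gene is silent. Eef1d, of the exchange complex for eEF1A, had signals of 739 and 738 at 11.5 dpc, 806 and 796 at 12.5 dpc, 734 and 876 at 14.5 dpc, 596 and 843 at 16.5 dpc, then 888 and 954 at 18.5 dpc, a change of 0.31 ± 0.17. Eef1b2, of the same complex, had signals of 183 and 125 at 11.5 dpc, 159 and 295 at 12.5 dpc, 110.4 and 224 at 14.5 dpc, 109 and 185 at 16.5 dpc, then 116 and 121 at 18.5 dpc, a change of -0.32 ± 0.42. Eef1a2, the form known from muscle and neurons, had signals of 22.5 and 70.2 at 11.5 dpc, 33.8 and 36.8 at 12.5 dpc, 15.2 and 48.8 at 14.5 dpc, 52.4 and 28.7 at 16.5 dpc, then 49.4 and 59.4 at 18.5 dpc, a change of 0.29 ± 0.42. None of these was called, and Eef1g stayed between 0.6 and 32.2 and was not tested.

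Of the kinase and methyltransferases of the elongation factors, 2 of 10 tested probe sets were called, both of Eef1akmt1, a lysine methyltransferase of eEF1A. On array A it had signals of 268 and 211 at 11.5 dpc, 220.3 and 204 at 12.5 dpc, 205 and 167 at 14.5 dpc, 114 and 144 at 16.5 dpc, then 133 and 144 at 18.5 dpc. On array B it had signals of 324 and 218 at 11.5 dpc, 162 and 229 at 12.5 dpc, 207 and 216 at 14.5 dpc, 118 and 108 at 16.5 dpc, then 123 and 147 at 18.5 dpc. Both probe sets were lower from 16.5 dpc on, and neither had a 16.5 or 18.5 dpc sample above one of 11.5 dpc. The log2 changes at 18.5 against 11.5 dpc were -0.72 ± 0.19 (SE; adjusted p = 0.0224) on array A and -0.90 ± 0.25 (SE; adjusted p = 0.0274) on array B. On array A it lost its call without 18.5 dpc replicate 1 (adjusted p = 0.139), without 11.5 dpc replicate 1 (adjusted p = 0.111) and without 18.5 dpc replicate 2 (adjusted p = 0.0838). On array B it lost its call without 11.5 dpc replicate 1 (adjusted p = 0.172), without 18.5 dpc replicate 1 (adjusted p = 0.166) and without 18.5 dpc replicate 2 (adjusted p = 0.0764).

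Eef2k, which phosphorylates and halts eEF2, had signals of 92.5 and 136 at 11.5 dpc, 141 and 217 at 12.5 dpc, 107 and 166 at 14.5 dpc, 196 and 120.5 at 16.5 dpc, then 133 and 154 at 18.5 dpc by its main probe set, and its 4 tested probe sets changed by -0.08 to 0.31 without a call. Eef1akmt2, Eef1aknmt and Eef2kmt, which methylate eEF1A or eEF2, had main probe set changes of -0.22 ± 0.33, -0.01 ± 0.21 and -0.01 ± 0.30. None was called, and the 11.5 dpc samples of Eef1akmt2 were 388 and 156.

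The steps between neighbouring ages called few factors. At 12.5 against 11.5 dpc limma called none higher and none lower, against 0.197% and 0.0282% of all tested probe sets, with 7 members (7.61%) at an unadjusted p under 0.05, against 12.4% of all. Without 11.5 dpc replicate 2 it called 3, against 2.28% of all. At 14.5 against 12.5 dpc none was called higher and 1, Eif3a, lower, against 1.08% and 0.576% of all tested probe sets. Eif3a changed by -0.81 ± 0.17 (SE; adjusted p = 0.0356), and it lost its call in 8 of the 10 fits that left out 1 sample, with the highest adjusted p, 0.226, without 12.5 dpc replicate 1. It was also lost with the replicate number as a block (adjusted p = 0.05002). The members at an unadjusted p under 0.05 numbered 11 (12.0%) in that step, against 14.9% of all tested probe sets.

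At 16.5 against 14.5 dpc limma called none higher and none lower, against 0.294% and 0.395% of all tested probe sets, with 19 members (20.7%) at an unadjusted p under 0.05, against 15.6% of all. The median change of the members was -0.11, against 0.00 over all, and 55 of the 92 (59.8%) were below 0, against 49.8% of all. The lowest mean fell at 16.5 dpc in 27 of the 92 (29.3%), against 19.3% of all tested probe sets, and the highest in 9 (9.78%), against 19.0%. The median was -0.05 with plain _at probe sets only and -0.05 without 14.5 dpc replicate 2. Between 16.5 and 14.5 dpc, the summed stroma markers were 6359 and 4028 at 16.5 dpc, against 2996 and 3151 at 14.5 dpc, with 1 called higher. The germ cell markers summed to 1963 and 2071 at 16.5 dpc, against 3459 and 2299 at 14.5 dpc, with 3 called lower (Dppa3, Pou5f1 and Stra8). The others were not called and went both ways. Sycp1 changed by 1.08, Figla by 0.31, Ddx4 by -0.01, Nobox by -0.04, Dazl by -0.06, Kit by -0.96 and Sycp3 by -1.38. The proliferation markers summed to 2984 and 2785 at 16.5 dpc, against 3995 and 3869 at 14.5 dpc, with none called. The erythroid markers summed to 18288 and 20403 at 16.5 dpc, against 22047 and 21808.5 at 14.5 dpc. Of these, 3 were called lower (Hba-x, Hbb-bh1 and Hbb-y). Alas2, Hba-a1 and Hbb-b2 changed by 0.54, 0.55 and 0.35 without a call. The part of each in the shift was not tested.

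At 18.5 against 16.5 dpc 1 member, Eef1e1, was called higher and none lower, against 0.431% and 0.193% of all tested probe sets. Its signal was 2.50-fold higher, a log2 change of 1.32 ± 0.21 (SE; adjusted p = 0.0116), and it lost its call without 18.5 dpc replicate 1 (adjusted p = 0.188), without 16.5 dpc replicate 1 (adjusted p = 0.119), without 18.5 dpc replicate 2 (adjusted p = 0.0696) and without 16.5 dpc replicate 2 (adjusted p = 0.067). In the same step Eif2ak2 changed by -1.48 ± 0.34 (SE; adjusted p = 0.0718) and Eif2b3 by -0.87 ± 0.21 (SE; adjusted p = 0.0851), both without a call. The members at an unadjusted p under 0.05 numbered 14 (15.2%), against 13.1% of all tested probe sets.

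**Figure D4:**
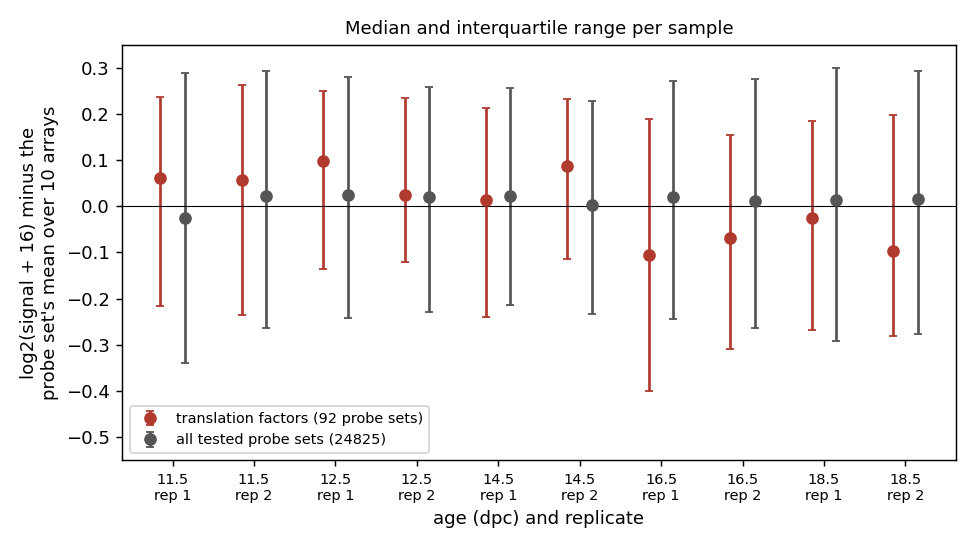
Median (point) and interquartile range (bar) of log2(signal + 16) minus each probe set's mean over the 10 arrays, per sample in order of age, for the 92 tested translation factor probe sets beside all 24825 tested probe sets. The medians of the factors lie above 0 in all samples up to 14.5 dpc and below 0 in all samples of 16.5 and 18.5 dpc.

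The promoters of 5 called factors are shown to give the sequence beside their courses. They are the 250 bases before the start of transcription, 5′ to 3′ on the gene's strand, from RefSeq on GRCm38.p6, with an E-box (CACGTG) or a GC box (GGGCGG, also as CCGCCC) in capitals. The positions are chr9:120492356-120492605 on the plus strand for Eif1b, and on the minus strand chr9:78481725-78481974 for Eef1a1, chr13:38659029-38659278 for Eef1e1, chr19:60790694-60790943 for Eif3a and chr7:126566367-126566616 for Eif3c.
Eif1b: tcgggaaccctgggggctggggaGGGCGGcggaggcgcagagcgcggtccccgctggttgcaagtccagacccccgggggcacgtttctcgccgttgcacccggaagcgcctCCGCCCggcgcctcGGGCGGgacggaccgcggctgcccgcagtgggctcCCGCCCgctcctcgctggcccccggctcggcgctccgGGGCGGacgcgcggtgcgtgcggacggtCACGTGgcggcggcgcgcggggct
Eef1a1: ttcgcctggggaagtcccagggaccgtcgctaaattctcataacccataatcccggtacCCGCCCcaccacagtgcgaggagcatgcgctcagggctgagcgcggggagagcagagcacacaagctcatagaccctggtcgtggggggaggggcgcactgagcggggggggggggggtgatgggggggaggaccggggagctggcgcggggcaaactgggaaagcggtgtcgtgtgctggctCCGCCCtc
Eef1e1: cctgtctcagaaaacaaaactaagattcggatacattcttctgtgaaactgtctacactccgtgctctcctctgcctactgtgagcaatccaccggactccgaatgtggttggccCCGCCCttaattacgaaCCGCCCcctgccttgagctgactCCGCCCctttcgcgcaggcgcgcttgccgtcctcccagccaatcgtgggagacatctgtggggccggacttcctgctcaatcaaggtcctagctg
Eif3a: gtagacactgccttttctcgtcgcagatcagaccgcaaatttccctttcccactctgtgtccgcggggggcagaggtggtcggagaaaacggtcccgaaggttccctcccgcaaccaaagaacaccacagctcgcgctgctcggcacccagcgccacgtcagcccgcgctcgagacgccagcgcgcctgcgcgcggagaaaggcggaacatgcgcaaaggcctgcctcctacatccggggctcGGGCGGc
Eif3c: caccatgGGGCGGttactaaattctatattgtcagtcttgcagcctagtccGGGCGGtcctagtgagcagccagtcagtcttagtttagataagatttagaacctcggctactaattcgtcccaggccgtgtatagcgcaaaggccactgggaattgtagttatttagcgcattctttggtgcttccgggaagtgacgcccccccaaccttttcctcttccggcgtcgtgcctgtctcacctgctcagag

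Eif1b has an E-box 24 bases before the start and 5 GC boxes, while the other 4 hold 1 to 3 GC boxes and no E-box. Of the 58 factor genes, 46 had a promoter in the table, with 61 promoters, and 10 of the 15 genes called in any test had one. An E-box lay in 13 of the 61 (21.3%), against 6.02% of all 32851 promoters and 6.63% of the 21263 promoters of protein-coding genes. A GC box lay in 40 of the 61 (65.6%), against 32.7% and 42.6%. Both strands were searched, and by their letters an E-box and a GC box can share a base. The 11 genes with an E-box were Eef1aknmt, Eef2, Eef2k, Eif1b, Eif3f, Eif3k, Eif4a1, Eif4e, Eif4h, Eif5a and Eif5a2, and Eif1b was the only called gene among them. Eif3f, Eif4h and Eif5a were not tested, so they could not be called. Of all 46 factor genes with a promoter, tested or not, 10 were called. A match describes the letters in the window and not a bound site.

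Other genes of the pathway were followed by lists, with 1 probe set per gene. Beside the counts below, 7.59% of all tested probe sets were called higher and 6.87% lower at 18.5 than at 11.5 dpc. Whether a list differed from these shares was not tested. Among 15 tested genes of termination, recycling and poly(A) binding, 3 were called higher and 3 lower at 18.5 than at 11.5 dpc, with a median of -0.08. Denr, whose product with that of Mcts1 recycles ribosomes and can deliver tRNA as eIF2D does, had 3084 and 2735 at 18.5 dpc, against 1233 and 1323 at 11.5 dpc, a log2 change of 1.18 ± 0.22. Its partner Mcts1 was called lower, with 219 and 232 at 18.5 dpc, against 729.9 and 303 at 11.5 dpc. The change was -1.02 ± 0.30 (SE; adjusted p = 0.0365), with 11.5 dpc replicate 1 far above replicate 2. The F test did not call Mcts1 (adjusted p = 0.0623). Paip1, a partner of the poly(A)-binding protein, had 857 and 882 at 18.5 dpc, against 422 and 291 at 11.5 dpc, and Pabpc1 itself was called lower by -0.52 ± 0.15.

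Of 12 tested stress targets of eIF2 phosphorylation, 2 were called lower at 18.5 dpc and none higher, with a median of -0.34. Vldlr of this list, which was not called, reached the signal needed for testing only at 11.5 dpc. Of the remaining 11 genes, 2 were called lower, with a median of -0.28. Asns, asparagine synthetase, had 294 and 301 at 18.5 dpc, against 788 and 972 at 11.5 dpc. Slc3a2, an amino acid transporter subunit, had 212 and 224 at 18.5 dpc, against 340.3 and 357 at 11.5 dpc. Of 21 tested cytosolic aminoacyl-tRNA synthetases and their scaffold genes, 3 were called lower (Aars, Gars and Lars) and 1 higher (Kars), with a median of -0.20. Of 14 tested genes of mTOR and cap signalling, 2 were called higher (Ddit4 and Pdcd4) and 1 lower (Rps6ka3), with a median of -0.22. Pdcd4, an inhibitor of the eIF4A helicase, had 979 and 909 at 18.5 dpc, against 618 and 556 at 11.5 dpc.

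Of 13 tested genes of germ cell translational control, 6 were called higher at 18.5 than at 11.5 dpc (Cpeb1, Dazl, Ddx4, Lsm14b, Msi2 and Ybx2) and none lower, with a median of 0.67. Cpeb1 and Ybx2 reached the signal needed for testing only at 18.5 dpc, so their calls follow from the filter and are not counted as support. Of the remaining 11 genes, 4 were called higher, with a median of 0.44. Lsm14b, an RNA-binding protein of messenger ribonucleoprotein particles, had 758 and 829 at 18.5 dpc, against 290.3 and 241 at 11.5 dpc. Msi2, also an RNA-binding protein, had 699.6 and 612 at 18.5 dpc, against 376 and 438 at 11.5 dpc. Dazl and Ddx4 of this list are also germ cell markers.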

How the data were processed

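The deposited values are linear signal intensities, which the authors scaled to a mean of 125 on each array, per the labels' descriptions. The signal software was not given in the sources used here. Detection calls were not analysed here, and low signals were not read as absence. Probe sets were named where GEO's platform annotation gives 1 gene symbol, and all 58 symbols matched a RefSeq symbol. For each array type, log2(signal + 16) of the 10 arrays was fitted with the 5 ages as groups in limma 3.58.1 under R 4.3.3, with eBayes following the intensity trend, leaving 5 residual degrees of freedom. Of 36701 probe sets without controls, 24825 with a signal of at least 50 on at least 2 arrays of the type were tested. Adjustment was Benjamini-Hochberg's, across all 3 types at the same time, and calls were made at an adjusted p under 0.05. The procedure was tested on simulated data. The number of arrays limits the precision.

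Tests were an F test over the 5 ages, 18.5 against 11.5 dpc and each age against the one before. Full values are given for each called member and for a set of well-known factors, called or not, and the rest by range. The members and lists were chosen with earlier results of these data known. One entry of the synthetase list was left out because its symbol matched a mitochondrial enzyme through a synonym. The labels do not say whether a replicate number links samples of different ages, and the main fit had no replicate block. Deviations from the age means correlated at -0.16 to 0.22 between same-numbered samples on array A. There 1 of 10 age pairs was over 0.1, and 0 of 10 on arrays B and C. With 2 samples per age these values cannot exclude a pairing. The alternatives tried were other pseudocounts, filters, scalings, variance models, adjustments and probe set choices, a replicate block, and leaving out each sample.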

Additional observations from a re-analysis of the deposited data

How the results depend on the processing

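Fits that left out 1 sample keep a lone sample at that age, assumed to vary like the others. In them the F test over the 5 ages called 5 to 23 of the member probe sets (16 with all samples), 18.5 against 11.5 dpc 3 to 16 (15), 12.5 against 11.5 dpc 0 to 3 (0), 14.5 against 12.5 dpc 0 to 2 (1), 16.5 against 14.5 dpc 0 to 1 (0) and 18.5 against 16.5 dpc 0 to 2 (1). Without the intensity trend the F test called 5 of the 92, against 9.66% of all tested probe sets, and 14.5 against 12.5 dpc and 18.5 against 16.5 dpc called 0 each. With the replicate number as a replicate block, 14.5 against 12.5 dpc called 0, since Eif3a had an adjusted p of 0.05002. The block called 16 at 18.5 against 11.5 dpc, of which 14 were shared with the 15, and the F test called 17. Under the other settings these 6 counts stayed within 1.5 times. Of 17 called changes, 1 changed sign: Eef1a1 at 18.5 against 11.5 dpc was -0.23 with quantile normalization. Of the 77 probe sets not called at 18.5 against 11.5 dpc, 11 were called under at least 1 setting. With probe sets of array A preferred, 7 genes had another main probe set. With 2 samples per age, small changes of dim probe sets were not detectable, and a change without a call is not shown to be absent.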
